A study of Mus musculus with 5 samples.

Results

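Ribosomal protein processed pseudogenes were followed in GL261 cells, a mouse glioma line, 24 h after addition of sodium propionate, a short-chain fatty acid salt, or of sodium chloride as the control salt. Both salts were given at 1 uM as the labels state it, a unit that could not be checked here. The members are the genes whose name starts with Rpl or Rps and holds -ps, together with Rps12l1, a copy of Rps12 that carries no -ps in its name. Of 262 such names, 15 had no TPM (a transcript level scaled for length and library size) in any of the 5 libraries, and the other 247 were kept as members, out of 30496 genes with TPM above 0. Besides their names, the members were thus selected on TPM above 0 in at least 1 library, and the lowest of those kept reached 0.00359 TPM in its highest library. There were 2 propionate libraries (replicates 2 and 3) and 3 chloride libraries (replicates 1 to 3), and the first propionate replicate was not analysed here. Whether the libraries stem from separate cultures is not labelled, so a p-value covers the spread among these libraries alone, and that spread may be technical.

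Processed pseudogenes arise when a spliced messenger RNA is copied back into DNA and inserted elsewhere in the genome, so they resemble the coding sequence of their parent gene without its introns. Ribosomal protein genes are among the most highly expressed genes of growing cells, and mammalian genomes hold many such copies of them. A sequencing read from the parent can fit a close copy as well as the parent, so the level given for a copy can include reads of the parent or of another copy.

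The members belong to 56 parent genes, 35 of the large ribosomal subunit with 147 members and 21 of the small subunit with 100 members. Rps12, which encodes a protein of the small subunit, has the most copies, with 24 members, and 13 parents have 1 member each. The GENCODE M21 annotation classes 231 members as processed pseudogenes, 9 as transcribed processed pseudogenes and 7 as protein coding, Rps12-ps3 among the 7. In the deposited files, 244 of the 247 members had only transcripts of 1 exon. The members lie on 20 chromosomes, 30 of them on X. No other annotated gene overlaps 162 members. Of the rest, 75 lie inside an intron of another gene (50 on the opposite strand and 25 on the same strand), and 10 lie over an exon. Each member was counted once, with a gene on the same strand taken before one on the opposite strand. Some of the 25 could therefore also lie over an exon on the opposite strand.

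Sequences from GENCODE M21 (GRCm38, the same assembly as mm10) show how little separates the copies from their parents. The first 120 bases of the Rps12 coding sequence are given for the copy that was at 0 in every chloride library, for the most abundant copies and for the parent, with bases that differ from the parent in capitals.
Rps12l1: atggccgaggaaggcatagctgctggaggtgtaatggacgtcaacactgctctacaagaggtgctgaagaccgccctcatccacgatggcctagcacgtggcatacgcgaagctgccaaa
Rps12-ps3: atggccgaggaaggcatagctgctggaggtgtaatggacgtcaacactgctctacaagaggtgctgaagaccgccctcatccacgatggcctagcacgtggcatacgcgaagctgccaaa
Rps12-ps9: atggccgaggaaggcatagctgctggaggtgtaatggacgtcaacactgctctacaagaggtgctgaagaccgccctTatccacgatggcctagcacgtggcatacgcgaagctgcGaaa
Rps12: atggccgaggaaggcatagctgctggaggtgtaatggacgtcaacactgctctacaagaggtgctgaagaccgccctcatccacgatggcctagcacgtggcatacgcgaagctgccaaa

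The Rps12l1 stretch is chr7:56014016-56014135 on the plus strand, that of Rps12-ps3 is chr19:59322371-59322490 on the plus strand, and that of Rps12-ps9 is chr8:123206623-123206742 on the plus strand. Rps12 itself lies on the minus strand of chromosome 10. Rps12l1 and Rps12-ps3 had no difference from Rps12 over its whole coding sequence of 399 bases. Rps12-ps9 differs in this stretch by C78T and C117G, counted from 1 at the first base of the parent's coding sequence, with the parent's base first. These 3 copies sat at very different levels although they are nearly the same in letters: Rps12-ps3 averaged 1873 TPM over the 5 libraries, Rps12-ps9 871 TPM and Rps12l1 6.12 TPM.

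Across all 247 members, identity to the parent's coding sequence, over aligned bases with gaps not counted, had a median of 97.9% and quartiles of 95.8% and 99.1%. At least 90% of the parent's coding sequence was covered in 233 members, and 16 of these had no substitution. The reading frame was open in 132 members, meaning that the copy covers the parent's coding sequence from its start in the same orientation with no frameshift and no early stop. A frameshift was found in 81 members and an early stop in 83. Members with an open frame had a median of 8.23 TPM (n = 132) and a median identity of 98.8%, and the other 115 members had a median of 0.304 TPM and a median identity of 96.7%.

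**Figure D1:**
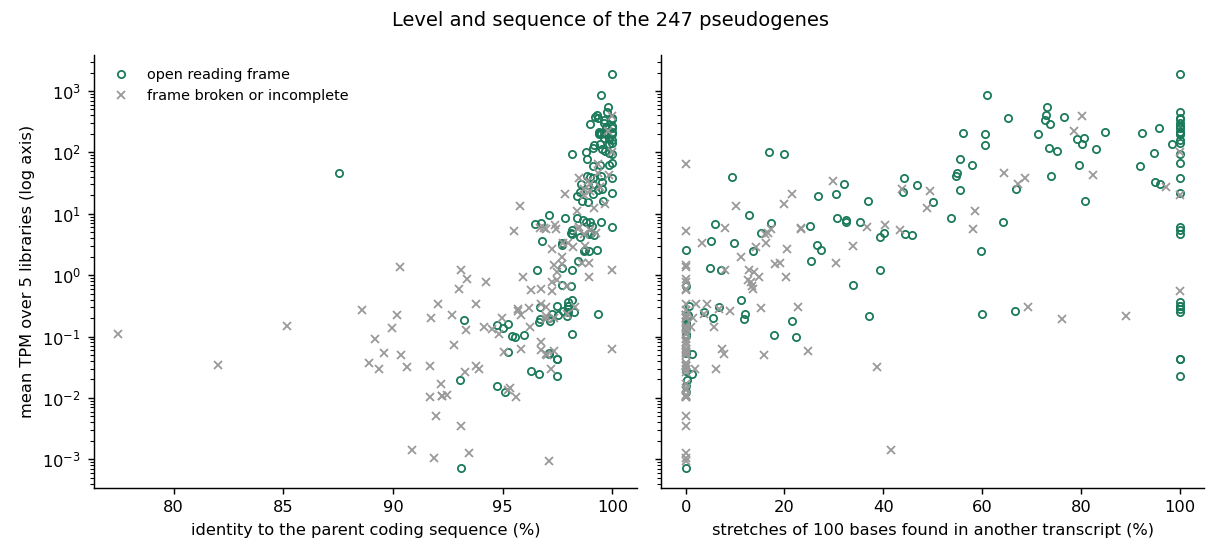
Mean TPM over the 5 libraries (log axis) of each of the 247 members against its identity to the parent's coding sequence in percent (left) and against the percentage of its 100-base stretches that also occur in another annotated transcript (right). Circles are members with an open reading frame and crosses are the rest; every member above 100 TPM is at least 98.8% identical to its parent, and members that share every stretch run between 0.0224 and 1873 TPM.

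Level went with likeness to the parent. Spearman's rho between identity and mean TPM was 0.82 over the 247 members, which share libraries and reads, so it is given as a description. The share of a member's 100-base stretches that occur in another annotated transcript was compared with its level in the same way (rho = 0.72). In 63 members no such stretch occurred elsewhere, and their median was 0.0813 TPM. Of these 63, 5 averaged at least 1 TPM, and Rpl39-ps was the highest of them with 72.4 and 65.7 TPM in the propionate libraries and 58.7, 57.2 and 67.0 TPM in the chloride libraries. In the 52 members that share over 50% but not all of their stretches, the median was 62.0 TPM. The read length is not given in the sources used here, and whether a level comes from the copy itself or from reads of the parent was not tested.

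Sharing with the parent and sharing with other copies did not go with level in the same way. All 14 members whose stretches all occur in the parent averaged at least 6.12 TPM, with a median of 149.8 TPM and Rps12l1 the lowest of them. Of the 32 members whose stretches all occur in some other transcript, 9 averaged under 1 TPM, and all 9 were copies of Rps12 on the X chromosome. The X chromosome carries 14 copies of Rps12. They averaged between 0.0224 and 0.551 TPM, were 96.2% to 98.0% identical to Rps12 and shared at most 15.7% of their stretches with it. A copy with a level far from its likeness to the parent was Rpl36a-ps3, named after its values were seen, which averaged 45.9 TPM at an identity of 87.5%.

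The libraries were of similar depth, with 6.59 and 6.75 Gb of aligned sequence in propionate replicates 2 and 3 and between 6.53 and 7.03 Gb in the chloride libraries, and 1 TPM stood for 4.73-fold to 4.99-fold coverage of a transcript. The neural and glioma markers Vim, Sox2, Nes, Cd44 and S100b were present in every library, Gfap was between 3.22 and 6.59 TPM and Olig2 under 1 TPM. The 5 leukocyte, 3 endothelial and 3 neuronal markers were all below 0.2 TPM in every library except Cd68, and Itgam, Cdh5, Kdr, Rbfox3 and Snap25 were at 0 throughout. The endothelial markers summed to 0.101 and 0.157 TPM in the propionate libraries and to 0.0385, 0.0722 and 0.0246 TPM in the chloride libraries. The myelin markers Mbp and Mog summed to 692 and 815 TPM in propionate and to 865, 809 and 682 TPM in chloride. The summed level of the 5 leukocyte markers was 10.1 and 12.2 TPM in the propionate libraries and 7.64, 7.09 and 6.25 TPM in the chloride libraries, nearly all of it Cd68. The summed level of the 3 epithelial markers was 14.7 and 18.3 TPM in the propionate libraries and 10.3, 9.26 and 8.58 TPM in the chloride libraries, most of it Krt8. The part of these markers in the pseudogene values was not tested. In bulk RNA, fewer cells with a transcript and less of it per cell cannot be told apart.

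Together the members held 1.35% and 1.37% of all TPM in the propionate libraries and 1.37%, 1.29% and 1.36% in the chloride libraries. In TPM summed over members this was 13500.1 and 13662 in propionate and 13657, 12885 and 13630 in chloride, and the groups overlapped. Few members made up most of this total. Over the 5 libraries, 39 members averaged at least 100 TPM, 81 at least 10 TPM and 112 under 1 TPM. The 12 highest held 49.3% of the summed member TPM, and Rps12-ps3 alone held 13.9%.

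Assembled transcripts enter the next values. StringTie had added transcripts assembled from the reads to the annotation, and these take coverage from the annotated ones, so the level at a locus is the sum of both. The sum differed from the annotated transcripts alone by over 0.01 TPM in 20 of the 247 members.

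Rps12-ps3, which lies in an intron of Pdzd8 on the opposite strand, had 1826 and 1906 TPM in the propionate libraries and 1878, 1843 and 1909 TPM in the chloride libraries. The groups overlapped and no library stood apart. Its parent Rps12 had 2119 and 2112 TPM in propionate and 1999, 2075 and 2212 TPM in chloride, so this single copy was listed almost as high as its parent. Rps12-ps9 had 898 and 866 TPM in propionate and 865, 852 and 876 TPM in chloride, again with overlapping groups. Rps12-ps4, which matches Rps12 at every aligned base but lacks an open frame, had 357 and 424 TPM in propionate and 397, 392 and 395 TPM in chloride.

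The other 9 of the 12 highest copies come from 7 parents, Rpl17 giving 3 of them. Rpl23a-ps3 had 531 and 625 TPM in propionate and 551, 538 and 551 TPM in chloride. Rpl7a-ps11 had 436 and 518 TPM in propionate and 465, 438 and 454 TPM in chloride. In both, propionate replicate 3 was the highest library and propionate replicate 2 the lowest. Rpl38-ps2, a copy of a gene needed in mice for normal patterning of the skeleton, had 413 and 362 TPM in propionate and 326, 352 and 366 TPM in chloride. Rpl15-ps3 had 336 and 396 TPM in propionate and 373, 267 and 349.9 TPM in chloride, with chloride replicate 2 the lowest. Both sets overlapped between the groups.

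The small-subunit copies Rps2-ps13 and Rpsa-ps10 lay lower in both propionate libraries than in any chloride library, as 19.7% of all tested genes did. Rps2-ps13 had 347 and 343 TPM in propionate and 411, 389.6 and 361 TPM in chloride (log2 change -0.16 ± 0.09 SE, limma adjusted p = 0.381). Rpsa-ps10, a copy of the gene for the laminin-receptor ribosomal protein, had 336 and 362 TPM in propionate and 363, 363 and 373 TPM in chloride (log2 change -0.07 ± 0.08, limma adjusted p = 0.713). Neither difference passed the test.

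**Figure D2:**
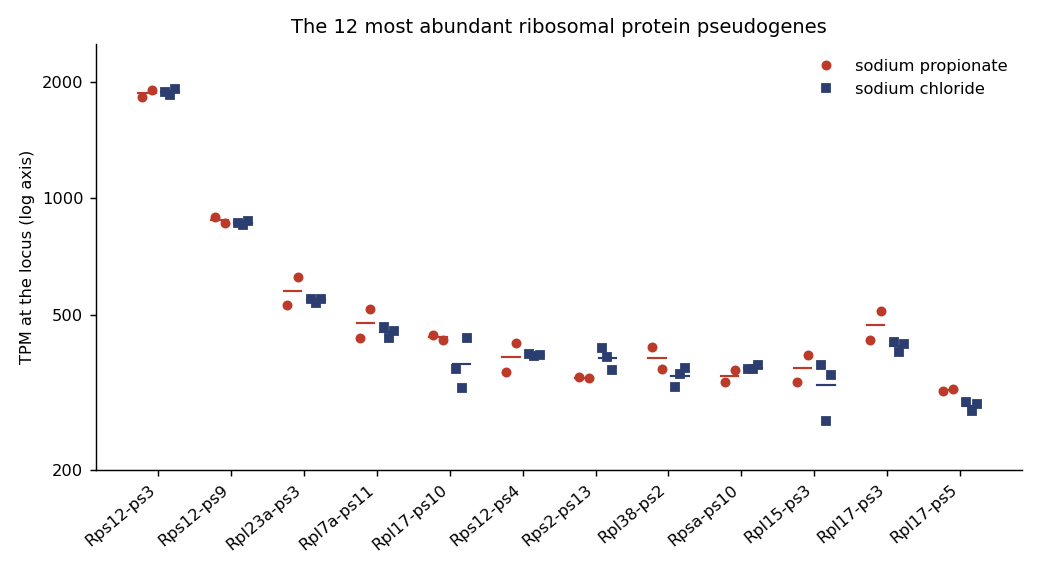
TPM at the locus (log axis) of the 12 members with the highest mean TPM of their annotated transcripts. Red circles are the 2 propionate libraries, blue squares the 3 chloride libraries, and short lines the group means; in 8 of the 12 the groups overlap, and over all tested genes the groups do not overlap in 34.6%.

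The copies of Rpl17, a large-subunit protein that lines the exit tunnel of the ribosome, stood out by how much of their family's TPM they held. The annotated transcripts of the parent were listed at 0 in all 5 libraries, and assembled transcripts at its locus summed to 53.1 and 54.5 TPM in propionate and to 71.1, 69.1 and 49.4 TPM in chloride. Its 9 copies summed to 1621 and 1709 TPM in propionate and 1469, 1381 and 1546 TPM in chloride, which is 96.3% of the family's TPM. Rpl17-ps10 had 445 and 431 TPM in propionate and 363, 325 and 437 TPM in chloride. Rpl17-ps5 had 319 and 323 TPM in propionate and 298, 282 and 294 TPM in chloride, so its groups did not overlap (log2 change 0.14 ± 0.08, limma adjusted p = 0.420).

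For Rpl17-ps3 the assembled transcripts turned the direction. Its annotated transcript had 432 and 10.5 TPM in propionate replicates 2 and 3 and 426, 402 and 421 TPM in chloride. In propionate replicate 3 alone, an assembled transcript had 501.9 TPM, and it was at 0 in the other 4 libraries. It has the same ends as the annotated transcript of 556 bases, but 2 exons and a length of 515 bases. The locus therefore had 432 and 512 TPM in propionate and 426, 402 and 421 TPM in chloride. The log2 change was 0.18 ± 0.09 for the locus (limma adjusted p = 0.388) and -2.56 for the annotated transcript alone (limma adjusted p = 0.532).

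In 6 families the copies held over 50% of the TPM of parent and copies together: Rpl17, Rpl35a with 86.4%, Rpl21 with 82.9%, Rpl7a with 75.1%, Rpl15 with 64.0% and Rps12 with 60.9%. In 15 families they held under 1%, and the median over the 56 families was 7.12%. Summed over all families the share was 19.3% and 18.8% in the propionate libraries and 19.4%, 18.8% and 19.3% in the chloride libraries. The groups overlapped. Counted as aligned bases in place of TPM, without scaling for transcript length, the mean share was 12.4%. For single families the share by aligned bases is not given here, so their shares hold for TPM only. Parent and copies can differ in length. An annotated Rpl35a transcript has 2733 bases and the copy Rpl35a-ps5 333 bases. An assembled transcript at the Rpl17 locus has 3786 bases and the annotated copy Rpl17-ps3 556 bases.

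**Figure D3:**
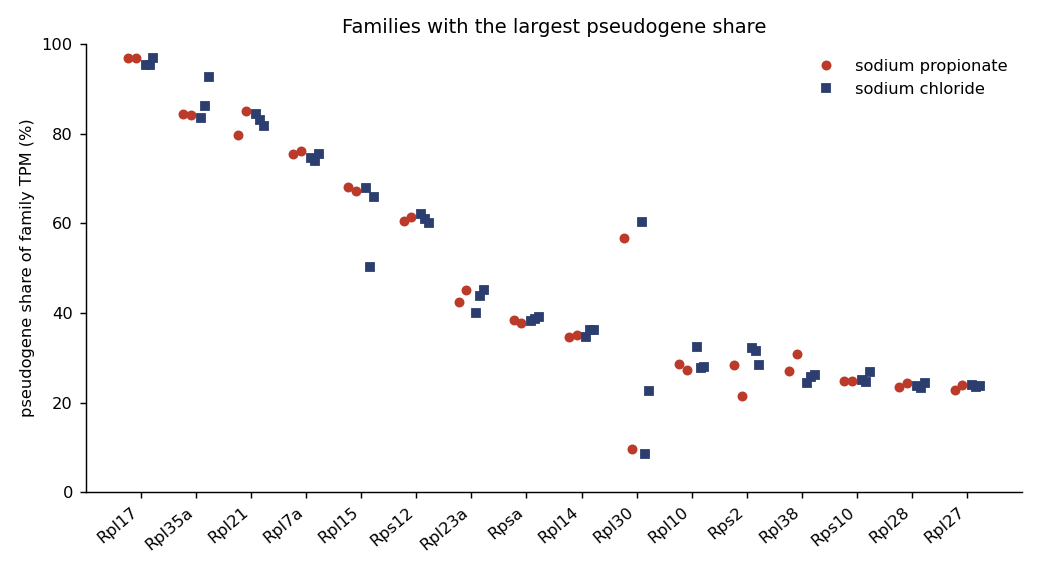
Share of the TPM of parent and copies together that was assigned to the copies, in percent, for the 16 families with the largest share. Red circles are the 2 propionate libraries and blue squares the 3 chloride libraries; Rpl30 spreads from 8.60% to 60.2% within the chloride group, whereas most families keep to a narrow range.

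In some families the split between parent and copies changed from library to library, across the treatment groups. These families were named after their values were seen. The parent Rpl30, a large-subunit protein gene, had 327 and 879 TPM in propionate replicates 2 and 3 and 311, 807 and 714 TPM in chloride replicates 1, 2 and 3. Its copies summed to 431 and 93.1 TPM in propionate and to 469.5, 75.9 and 207 TPM in chloride. Propionate replicate 2 and chloride replicate 1 were low for the parent and high for the copies, and propionate replicate 3 and chloride replicate 2 were the reverse. The highest library was 2.83 times the lowest for the parent and 6.18 times for the copies, but 1.28 times for their total.

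The 5 abundant Rpl30 copies lie at separate places on chromosomes 2, 6, 12 and X and moved together. Rpl30-ps8 had 201 and 39.2 TPM in propionate and 217, 28.9 and 95.0 TPM in chloride. Rpl30-ps10 had 97.9 and 25.3 TPM in propionate and 113, 20.5 and 48.8 TPM in chloride. Rpl30-ps3, the lowest of the 5, had 16.4 and 3.20 TPM in propionate and 18.6, 2.16 and 7.25 TPM in chloride. All 5 were highest in chloride replicate 1 and next highest in propionate replicate 2, and their log2 changes between the groups lay between -0.08 and 0.10. These changes turned with single libraries: that of Rpl30-ps8 was -1.09 without propionate replicate 2, 1.24 without propionate replicate 3, 0.75 without chloride replicate 1 and -0.68 without chloride replicate 2.

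Rps27a encodes ubiquitin fused to a small-subunit protein. It had 1236 and 827 TPM in propionate and 1326, 759.8 and 1159 TPM in chloride, and its copy Rps27a-ps2 had 129.6 and 355 TPM in propionate and 102, 326 and 187 TPM in chloride. Here propionate replicate 3 and chloride replicate 2 were low for the parent and high for the copy, so the same pairs of libraries parted as for Rpl30 but the other way round. The Rps27a family total ranged over 1.31-fold where the copies ranged over 3.49-fold. For Rpl15, chloride replicate 2 alone had more parent and less copy, with 361 TPM for the parent against 243 and 254 TPM in the other two chloride libraries.

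**Figure D4:**
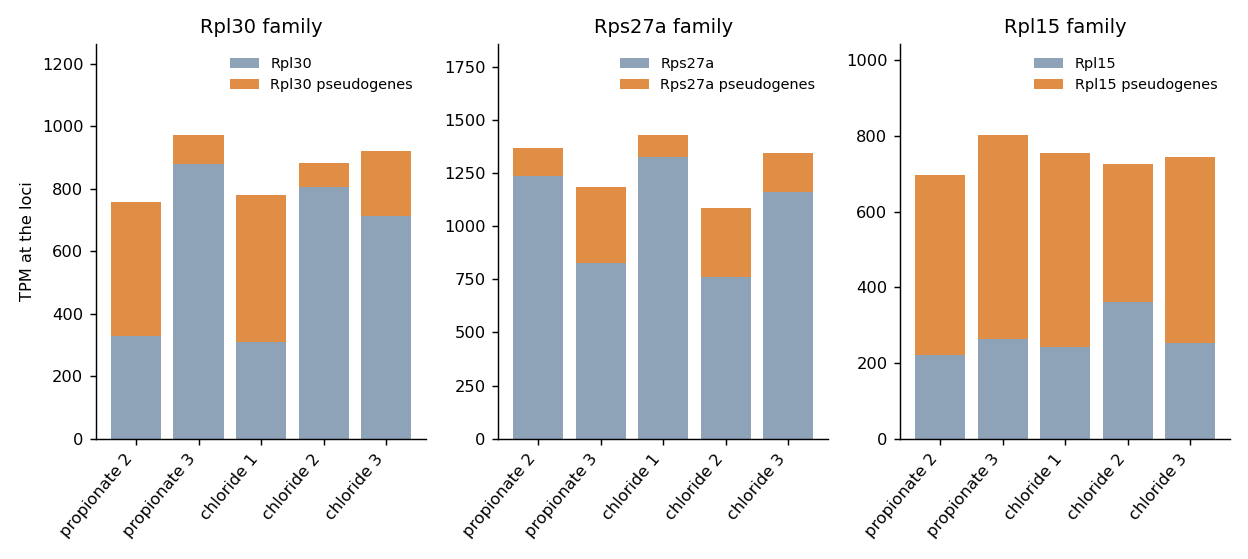
TPM of the parent (grey-blue) and of all its copies (orange), stacked, in each library for the Rpl30, Rps27a and Rpl15 families. The total height ranges over 1.28-fold for Rpl30, 1.31-fold for Rps27a and 1.15-fold for Rpl15. The median over all family totals is 1.14-fold. The border between parent and copies moves more than the total, for Rpl30 between 311 and 879 TPM.

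Wide differences within the chloride group were found in other members too. In 15 of the 137 tested members, the highest and lowest chloride libraries differed by over 1 on the log2(TPM + 1) scale, and 5 of the 15 were copies of Rpl30. The median SD between the chloride libraries on that scale was 0.129 for the members, 0.042 for the parents and 0.112 for all genes.

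The comparison of propionate with chloride used limma on log2(TPM + 1) across the 13881 genes that averaged 1 TPM or more at the locus, with Benjamini-Hochberg adjustment over all of them and a threshold of 0.05. Of the 247 members, 137 reached that level, and the 110 others were not tested. Of the 137, 2 passed the threshold, both higher in propionate, Rps12l1 and Rpsa-ps12. Among all genes tested, 1.82% passed, 1.31% higher and 0.504% lower. Both members were known to be high in propionate when the members were chosen, so their values are a description. At an unadjusted p under 0.05, 8 members were higher and none lower, where 7.93% of all genes were higher and 8.9% lower. Without Rps12l1 and Rpsa-ps12, 6 of 135 members were higher at that level and none lower.

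The tested members as a group lay slightly above 0. Their log2 changes had a median of 0.06, with 98 above 0 and 39 below, and the median of all genes was -0.03. After median-of-ratios scaling the medians were 0.08 for the members and -0.01 for all genes. The propionate and chloride libraries did not overlap in 21 members, 17 higher and 4 lower in propionate, which is 15.3% of the members where it is 34.6% of all genes (14.8% higher and 19.7% lower). Without Rps12l1 and Rpsa-ps12 the share was 14.1%, 15 members higher and 4 lower.

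**Figure D5:**
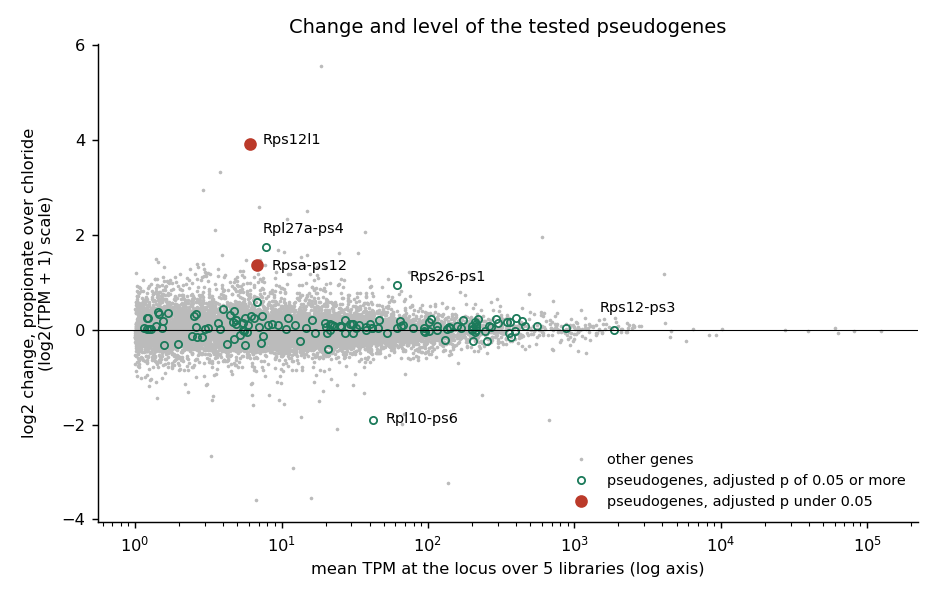
Log2 change of propionate over chloride on the log2(TPM + 1) scale against mean TPM at the locus (log axis) for the 137 tested members (green circles, or red where the adjusted p is under 0.05) and all other tested genes (grey). Most members lie along 0 at every level, and Rps12l1 above and Rpl10-ps6 below lie farthest from it; the height of Rps12l1, at 0 in chloride, depends on the 1 TPM that was added.

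Rps12l1 had 21.7 and 8.92 TPM in the propionate libraries and was listed at 0 in each of the 3 chloride libraries. It was the only member at 0 in 1 library and at 5 TPM or more in another. It lies at chr7:56014016-56014414 on the plus strand, over an exon of the gene Gm44510 on the opposite strand, and all of its 100-base stretches also occur in Rps12. Its level was 0.405% and 0.163% of the Rps12 family's TPM in the propionate libraries. That family summed to 5364 and 5460 TPM in propionate and to 5277, 5299 and 5531 TPM in chloride, and its total did not pass the test (log2 change 0.01 ± 0.07, limma adjusted p = 0.958). With the same levels, Rps12l1 no longer passed when all genes with any TPM were tested (limma adjusted p = 0.129) or when assembled transcripts were left out of all genes (limma adjusted p = 0.0558).

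Rpsa-ps12, whose annotated transcript in the files is chr4:149142497-149143506 on the minus strand, had 9.80 and 12.9 TPM at its locus in propionate and 3.39, 3.46 and 4.43 TPM in chloride. In TPM the groups did not overlap. The annotated transcript alone had 4.18 and 1.41 TPM in propionate and 3.39, 3.46 and 4.43 TPM in chloride, with propionate replicate 3 the lowest library. The rest, 5.63 and 11.4 TPM in propionate and 0 in each chloride library, was an assembled transcript of 2 exons. It is 265 bases long, against 1010 bases of the annotated transcript. Because TPM is scaled for length, the same reads give more TPM on the shorter transcript. Whether and how far this raised the locus sum in propionate was not tested. A change in aligned bases at this locus was not tested, so the lack of overlap is shown for length-scaled levels alone. The log2 change was 1.37 ± 0.16 for the locus and -0.42 for the annotated transcript. The call was lost without propionate replicate 3, with a log2 change of 1.19 and a limma adjusted p of 0.101. This copy has a frameshift and an early stop, and unlike the Rps12 copies shown it is separated from Rpsa by 5 substitutions in the stretch shown.
Rpsa-ps12: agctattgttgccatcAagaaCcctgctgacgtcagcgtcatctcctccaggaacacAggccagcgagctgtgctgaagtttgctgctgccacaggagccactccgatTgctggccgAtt
Rpsa: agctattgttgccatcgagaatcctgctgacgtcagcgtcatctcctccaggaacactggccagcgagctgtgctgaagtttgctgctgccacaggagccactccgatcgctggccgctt

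The stretch, chr4:149143077-149143196 on the minus strand, holds G205A, T210C, T246A, C297T and C306A relative to Rpsa, and only 3.40% of the copy's 100-base stretches occur elsewhere. The parent Rpsa had 681 and 744 TPM in propionate and 714, 703 and 698 TPM in chloride, with a log2 change of 0.01 ± 0.08 that did not pass (limma adjusted p = 0.954).

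Rpl27a-ps4 and Rps26-ps1 had the next largest increases. Rpl27a-ps4, in an intron of Tnpo1 on the opposite strand, had 4.99 and 25.8 TPM in propionate and 2.997, 2.42 and 2.996 TPM in chloride. The groups did not overlap, but the 2 propionate libraries differed more from each other than propionate replicate 2 did from chloride, and the change of 1.74 ± 0.50 did not pass (limma adjusted p = 0.131). Its parent Rpl27a, of the large subunit, had 459 and 461 TPM in propionate and 490.2, 505 and 497 TPM in chloride. Without propionate replicate 2 the change of Rpl27a-ps4 was 2.82 and passed (limma adjusted p = 0.00425), and without propionate replicate 3 it was 0.66 and did not (limma adjusted p = 0.203). The stretch with most differences from the parent is chr13:98904362-98904481 on the plus strand, with G162A, T233C and A258G.
Rpl27a-ps4: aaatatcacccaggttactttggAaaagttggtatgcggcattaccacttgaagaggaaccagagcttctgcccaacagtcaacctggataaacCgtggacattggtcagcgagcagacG
Rpl27a: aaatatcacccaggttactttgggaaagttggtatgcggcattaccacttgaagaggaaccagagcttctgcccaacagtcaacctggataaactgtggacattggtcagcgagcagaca

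Rps26-ps1 is a transcribed processed pseudogene in an intron of Wwp2, on the opposite strand. Its parent encodes a small-subunit protein near the channel where the messenger RNA leaves the ribosome. The copy had 81.1 and 85.3 TPM in propionate and 72.3, 43.0 and 25.1 TPM in chloride. The propionate libraries were the highest, and chloride replicate 1 was nearer to them than to chloride replicate 3. The change of 0.94 ± 0.34 did not pass (limma adjusted p = 0.220). The parent Rps26 had 1015 and 1163 TPM in propionate and 1071, 1121 and 1076 TPM in chloride, with overlapping groups. The first 120 coding bases, chr8:107439443-107439562 on the minus strand, differ by C30T.
Rps26-ps1: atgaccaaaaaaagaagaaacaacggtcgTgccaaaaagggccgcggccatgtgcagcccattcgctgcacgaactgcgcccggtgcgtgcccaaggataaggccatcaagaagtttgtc
Rps26: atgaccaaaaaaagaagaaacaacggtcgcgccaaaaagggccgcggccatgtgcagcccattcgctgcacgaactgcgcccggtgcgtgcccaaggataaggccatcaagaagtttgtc

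Rpl27-ps2 and Rpl7-ps7 completed the 6 largest increases. Rpl27-ps2 had 11.96 and 5.85 TPM in propionate and 6.01, 4.27 and 5.89 TPM in chloride, so propionate replicate 2 alone was high (0.57 ± 0.26, limma adjusted p = 0.309). Rpl7-ps7 had 4.61 and 5.20 TPM in propionate and 3.83, 3.05 and 3.17 TPM in chloride (0.44 ± 0.14, limma adjusted p = 0.171). Propionate replicate 3 had 1.80 TPM of its annotated transcript (873 bases) and 3.40 TPM of an assembled one (508 bases). The annotated transcript of Rpl7-ps7 alone gave a change of -0.13. Here too the same reads give more TPM on the shorter transcript, and a change in aligned bases was not tested.

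Rpl10-ps6 had the largest decrease, and 1 chloride library made it. It had 3.80 and 6.11 TPM in propionate and 189.6, 6.85 and 5.95 TPM in chloride. Only chloride replicate 1 was high, and the change of -1.90 ± 1.23 did not pass (limma adjusted p = 0.478); without that library it was -0.34. The copy lies in an intron of Ide, the gene of the insulin-degrading enzyme, on the same strand. An assembled transcript of Ide that spans the copy had 56.0 and 57.9 TPM in propionate and 2.94, 57.7 and 55.6 TPM in chloride, so it was low in the library where the copy was high. Rpl10, a large-subunit protein that joins late in assembly, had 1391 and 1615 TPM in propionate and 1650.1, 1541 and 1478 TPM in chloride. The copy differs from Rpl10 by a single substitution over its 642 aligned bases, C457T, which makes a stop codon of an arginine codon at the end of the stretch chr19:37295338-37295457 on the minus strand.
Rpl10-ps6: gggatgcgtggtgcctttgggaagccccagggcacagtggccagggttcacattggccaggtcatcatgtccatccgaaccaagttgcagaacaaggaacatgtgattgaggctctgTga
Rpl10: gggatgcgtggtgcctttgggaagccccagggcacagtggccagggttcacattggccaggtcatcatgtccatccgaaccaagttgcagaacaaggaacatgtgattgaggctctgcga

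The other 5 largest decreases were between -0.40 and -0.30 on the log2 scale, and their limma adjusted p-values lay between 0.446 and 0.862. Rpl35a-ps5 had 13.5 and 20.1 TPM in propionate and 15.9, 19.3 and 34.9 TPM in chloride, with chloride replicate 3 alone high. Rpl7-ps9 had 5.99 and 3.60 TPM in propionate and 5.41, 5.76 and 7.27 TPM in chloride. Rpl21-ps10 had 3.57 and 3.53 TPM in propionate and 6.12, 3.50 and 4.58 TPM in chloride. All 3 overlapped between the groups. Rpl19-ps6 was at 0 in propionate replicate 3 and chloride replicate 2 and at 2.59 TPM in propionate replicate 2, 2.59 TPM in chloride replicate 1 and 2.66 TPM in chloride replicate 3. Rps2-ps7 had 0.904 and 2.18 TPM in propionate and 2.88, 2.98 and 0.790 TPM in chloride, also with overlap.

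The parents gave no call. All 56 parents were tested, 0 passed with limma and 2 had an unadjusted p under 0.05, where 1.82% and 16.8% of all genes did, with a median log2 change of 0.04. Family totals, the summed TPM of parent and copies, were tested in a table with 1 row per family in place of the separate genes. TPM is scaled for length, so reads moving between transcripts of unlike length do not fully cancel in these totals. Of the 56 totals 0 passed with limma, where 1.86% of all rows passed, 1.34% higher and 0.524% lower. The log2 changes of the totals ranged between -0.15 and 0.41 with a median of 0.04, 42 above 0 and 14 below. The 2 totals with an unadjusted p under 0.05 were Rps24 and Rps10, both small-subunit genes and both named after their values were seen. Among all genes tested singly, 16.8% had an unadjusted p under 0.05. The parent Rps24 had 1496 and 1127 TPM in propionate and 1018, 978 and 927 TPM in chloride, and its family total changed by 0.41 ± 0.12 (limma adjusted p = 0.129). The parent Rps10 had 1214 and 1385 TPM in propionate and 1146, 1099 and 1023 TPM in chloride, and its family total changed by 0.24 ± 0.09 (limma adjusted p = 0.217). In both families the propionate libraries were above all chloride libraries, as they were in 14.8% of all genes tested singly.

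The wider set of cytosolic ribosomal protein genes gave the same count. Of 86 such genes 83 were tested, 0 passed with limma and 2 had an unadjusted p under 0.05, against the same 1.82% and 16.8% of all genes, with a median log2 change of 0.04. Genes named -ps that are not copies of ribosomal protein genes were the most like set outside the members. Of 409 of them 153 were tested, 1 passed higher, the ferritin light chain copy Ftl1-ps1, and 1 lower, Hmgn2-ps1, where 1.31% of all genes passed higher and 0.504% lower. Their median log2 change was 0.01, against 0.06 for the ribosomal protein copies, and this difference was not tested.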

How the data were processed

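Total RNA libraries of the TruSeq Stranded kit were measured in 2 propionate and 3 chloride samples, per the labels. Tools named in the submitters' processing notes are HISAT2, StringTie, fastp and bcl2fastq, with the build mm10. Per the file headers, StringTie 2.1.1 estimated TPM, FPKM and coverage per transcript of 1 merged annotation, separately for each library and without a strand setting, so the deposited TPM and FPKM are estimates and no read counts. Of the transcripts, 142480 are from Ensembl and 15415 were assembled from the reads. Members were found by gene name, and their 0 values can be failed estimates. Locus levels add 12224 assembled transcripts to the reference gene they overlap most on the same strand, and 3192 transcripts without a gene were left out. The test was limma (version 3.58.1, under R 4.3.3; two-sided, trended empirical Bayes) on log2(gene TPM + 1), with group as the only term and genes averaging under 1 TPM left out. On this scale the change of a low gene is understated. The script was tested on simulated data.

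Copies were aligned to the parent's coding sequence with Biopython 1.88 and GENCODE M21 sequences, and stretches of 100 bases were compared with all annotated transcripts on both strands. The members, lists and tests were chosen with earlier results of these data known. Named members are Rps12l1, Rpsa-ps12, those past the threshold, the 12 highest by mean TPM, the 6 largest increases and 6 largest decreases, any at 0 in all of 1 group and above 1 TPM in all of the other, and their parents. Named families are the 6 with the largest share of copies. Sequences shown are Rps12l1 and up to 4 named members by size of change; other Rps12 copies were added after their values were seen. The alternatives were median-of-ratios scaling, FPKM, a pseudocount of 0.1, a minimum of 5 TPM, no minimum, reference transcripts only, a replicate block and leaving out each library.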

Additional observations from a re-analysis of the deposited data

How the results depend on the processing

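The 2 calls among the members, Rps12l1 and Rpsa-ps12, were made again with median-of-ratios scaling, FPKM, a pseudocount of 0.1 TPM and a minimum of 5 TPM. Both were known to be high in propionate, and Rps12l1 reached each minimum only through its propionate libraries, so this is no support for them. Without these 2 genes there were 0 calls with limma among 135 members, and 6 at an unadjusted p under 0.05. With no minimum TPM there were 0 calls among the members and 3 among all genes, and with reference transcripts only 0 and 11 (5 higher, 6 lower). Leaving out each library gave 1 to 3 member calls, 0 to 1 parent calls (Rps2 without propionate replicate 2) and 15 to 170 calls among all genes, against 252 in full. Of these, 78 were left without chloride replicate 1, 140 without chloride replicate 2, 136 without propionate replicate 2 and 15 without propionate replicate 3. With 1 propionate library left, its spread is taken to be that of the chloride libraries. Median-of-ratios scaling gave 490 calls among all genes. Family totals gave 0 calls under every alternative run. Replicates 2 and 3 are the only shared numbers, and same-numbered libraries did not deviate together (r = -0.22 and -0.20 across genes). With only 2 propionate libraries, their deviations from the group mean mirror each other. These values therefore cannot decide whether the numbers pair the libraries. The fit with a replicate block gave 4 member calls, adding Rpl27a-ps4 and Rps26-ps1, and 368 calls among all genes (against 252 without the block).

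The copies' share of family TPM was 19.1% in full, 19.6% with reference transcripts only, 12.4% by aligned bases and 19.06% to 19.21% without each library. With reference transcripts only, the log2 change was -0.42 for Rpsa-ps12, -2.56 for Rpl17-ps3, -0.13 for Rpl7-ps7 and -0.12 for the parent Rpl19. In the same setting, without a change of sign, it was 1.65 for the parent Rps2, 1.22 for Rpl35a, 0.93 for Rpl21, -0.57 for Rpl38, -0.48 for Rpl7a and -0.30 for Rpl27a, and none of these passed. With median-of-ratios scaling it was 0.0097 for Rps12-ps3, 0.0093 for Rpl7a and 0.014 for Rps26. With the replicate block it was -0.018 for Rps12 and 0.022 for Rpl7a. Leaving out each library moved the log2 change across 0 for some copies: -0.040 to 0.022 for Rps12-ps3, -0.042 to 0.19 for Rpl23a-ps3, -0.051 to 0.19 for Rpl7a-ps11, -0.14 to 0.10 for Rps12-ps4, -1.24 to 0.60 for Rpl19-ps6, -0.68 to 0.074 for Rps2-ps7, -1.09 to 1.24 for Rpl30-ps8 and -0.50 to 0.95 for Rps27a-ps2. Among parents the ranges were -0.018 to 0.054 for Rps12, -0.049 to 0.078 for Rpsa, -0.026 to 0.12 for Rpl23a, -0.12 to 0.10 for Rpl7a, -0.039 to 0.52 for Rps2, -0.32 to 0.12 for Rpl38, -0.10 to 0.094 for Rps26, -0.032 to 0.13 for Rpl7, -0.16 to 0.055 for Rpl10 and -0.095 to 0.20 for Rpl19. The causes were not tested.

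The files hold no read counts, so no counting interval is given, and levels of copies that share all their stretches with another transcript depend on how reads were shared out.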
